A study of Neurospora crassa with 12 samples.

Results

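The genes examined were 9 genes of asexual spore formation (conidiation) in Neurospora crassa, of 9730 annotated genes in the merged annotation. They were chosen by identifier: the regulators fl (NCU08726), acon-2 (NCU00478) and acon-3 (NCU07617), the conidiation genes con-6 (NCU08769), con-8 (NCU09235) and con-10 (NCU07325), and the output genes eas (NCU08457), ccg-1 (NCU03753) and bli-4 (NCU08699). The choice was made with earlier results of these data known. With each gene went every transcript without an NCU identifier that overlapped it or lay within 2000 bp on either strand. This gave 50 of 21475 transcripts, made up of 10 annotated transcripts of the 9 genes and 40 of the 10690 unannotated transcripts.

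RNA-seq was performed on mycelia of WT and of 2 gene deletion strains that had been backcrossed to WT. Δset-1 (also Δkmt2) lacks the enzyme that methylates lysine 4 of histone H3, and Δdim-5 (also Δkmt1) the enzyme for lysine 9. All cultures were grown for 2 days at 25 °C and were kept in constant darkness for the last 24 h (DD24), and the LP30 cultures then received 30 min of light. The 12 libraries formed 6 groups of 2 replicates. The deposited annotation pools all 12 and holds positions, strands and exons only, so no level, no depth per library and no effect of strain or light can be given for any gene, and a transcript named here may come from any of the groups.

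In Neurospora, conidiation begins when aerial hyphae rise from the mycelium and constrict into chains of conidia. The process responds to blue light, which is sensed by the White Collar complex, and to the circadian clock. The fl gene (fluffy) encodes a zinc cluster transcription factor that is needed for conidia to form, and mutants of acon-2 and acon-3 are blocked while the chains are being made. The con genes were isolated as transcripts that accumulate during conidiation, eas encodes the hydrophobin that makes conidia water-repellent and is also known as ccg-2 and bli-7, ccg-1 is a clock-controlled gene and bli-4 a blue-light-inducible gene.

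The 9 genes differed in the kind of unannotated transcript found with them. The regulators fl and acon-3 and the gene con-6 had longer isoforms on their own strand. The genes acon-2, con-10, ccg-1 and bli-4 had an antisense transcript (a NAT), and no unannotated transcript overlapped con-8 or eas. Here an isoform is an unannotated transcript that overlaps exons of an annotated gene of its own strand by 1 bp or more, and a NAT one that does so only with a gene of the other strand. An isoform was found for 3 of the 9 genes, against 36.4% of all annotated genes, and a NAT for 4, against 21.2%. An intergenic transcript, which overlaps no annotated span, lay within 2000 bp of fl, acon-3, con-8 and eas, 4 of the 9 genes against 29.1% of all. The 40 unannotated transcripts came from 23 assembly genes. Of the 24 isoforms among them, 7 belonged to fl, acon-3 and con-6 and the others to neighbouring genes. Of the 11 NATs, 4 lay opposite the genes named above and 7 opposite neighbours. The remaining 5 transcripts were intergenic, and 8 of the 40 had a single exon. Among all 10690 unannotated transcripts 2440 were NATs, 712 of them with 2 or more exons. No such total is given here for the other kinds. For 824 of the 9730 genes the annotated transcripts were only carried over from the reference, with no transcript from the assembler at the locus, and none of the 9 was among them.

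**Figure D1:**
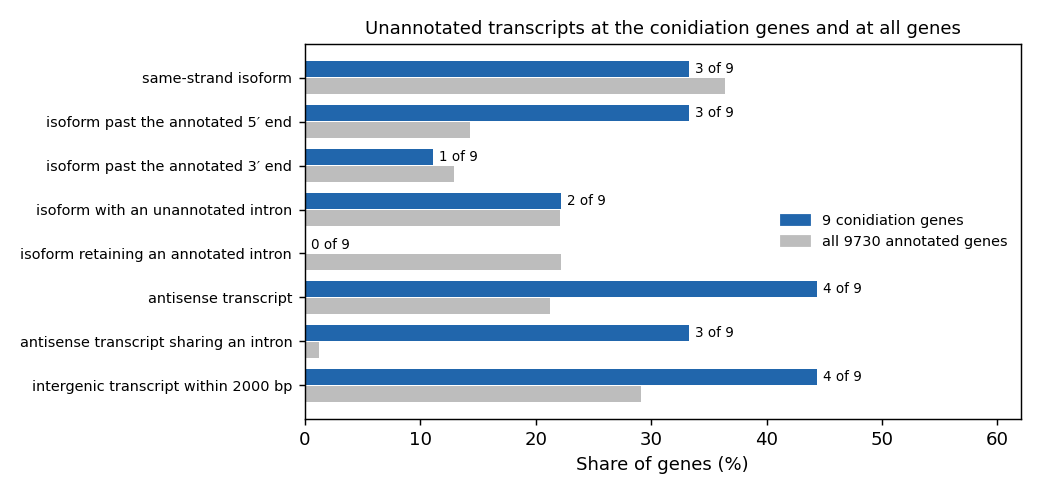
Share of genes (x axis, %) with each kind of unannotated transcript, for the 9 conidiation genes (blue, with the count) and for all 9730 annotated genes (grey). The shares of genes with an isoform are close, at 3 of 9 against 36.4%. Isoforms past the 5′ end are found at 3 of the 9 genes, against 14.3% of all genes. Without isoforms of more than 1 annotated gene, which leaves out that of fl, these are 2 of 9 against 10.9%. Antisense transcripts that share an intron are found at 3 of the 9 genes, against 1.22% of all genes.

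The 9 genes ranged in span from 772 bp (ccg-1) to 5435 bp (acon-2), with a median of 1894 bp against 2129 bp over all genes. The genes con-6 (886 bp), con-10 (820 bp) and ccg-1 were longer than only 8.71%, 7.2% and 6.26% of genes, and acon-2 was longer than 96.7% of them. Upstream of acon-2, acon-3 and eas the nearest annotated gene was 6133, 5986 and 5715 bp away. These gaps exceeded those of 95.2%, 95.1% and 94.8% of the 9725 genes with an upstream neighbour, whose median was 784 bp. These upstream neighbours were NCU00480, NCU07616 and NCU10730. The shortest upstream gap was that of fl (478 bp). On the 3′ side, NCU08724 lay 3530 bp from fl, NCU00477 458 bp from acon-2, NCU07618 3701 bp from acon-3, NCU16846 247 bp from con-10, NCU08456 1070 bp from eas and NCU08700 1546 bp from bli-4.

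The fl gene lies on the minus strand of chromosome II at 3805777 to 3809265 (NC12, supercontig 12.2), with 1 annotated transcript of 5 exons and 3157 nt. Its 4 introns are short, at 150, 60, 62 and 60 bp in the order of transcription. The unannotated isoform MSTRG.4523.1 (3805777 to 3811766, 6 exons, 5600 nt) kept these 4 introns and ended where fl ends, but began 2501 bp upstream, at the annotated start of the neighbouring gene NCU08727 on the same strand. It covered all exon sequence of fl and of NCU08727 (1965 nt), and the 478 bp between them lay inside its exon of 1390 nt. An isoform that shares exon sequence with another annotated gene was found at 520 genes, 5.34% of all. Within 2000 bp of fl the assembly also held MSTRG.4523.4, an isoform of NCU08727 alone, MSTRG.4524.1, a NAT of that gene (231 nt), and MSTRG.4522.1. The last is an intergenic transcript of 233 nt on the plus strand, which ran toward the 3′ end of fl and stopped 162 bp short of it. Convergent intergenic transcripts of this kind lay within 2000 bp of 7.74% of all genes.

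The acon-2 gene (chromosome III, 3992335 to 3997769, minus strand, supercontig 12.3) had 2 annotated transcripts of 5371 and 4785 nt, which share an intron of 64 bp. The shorter transcript removes a further 586 bp near the 5′ end. No unannotated isoform was assembled. Its only unannotated transcript was the NAT MSTRG.6035.1 (3996235 to 3996471, plus strand), a single exon of 237 nt that lay wholly within exon sequence of acon-2, 1298 bp from its start. It covered 4.41% of the exonic length of the gene and crossed neither intron.

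The acon-3 gene (chromosome IV, 271905 to 274263, plus strand, supercontig 12.4) encodes the counterpart of the Aspergillus developmental regulator MedA. Its annotated transcript has 3 exons of 45, 169 and 1979 nt. All 3 unannotated isoforms, MSTRG.6508.1 (2512 nt), MSTRG.6508.2 (3903 nt) and MSTRG.6508.3 (2617 nt), had 5 exons and began upstream of the annotated start, by 1486, 1157 and 717 bp. Each opened with a different exon, at 270419 to 270518, 270748 to 270917 and 271188 to 271392. These were joined by introns of 1063, 664 and 189 bp to the same second exon at 271582 to 271716. From there the isoforms shared an intron of 104 bp and an exon of 129 nt that begins 84 bp before the annotated start. The short annotated first exon was thus found as the end of an internal exon in each isoform. Both annotated introns, of 95 and 71 bp, were kept. MSTRG.6508.2 also passed the annotated 3′ end, by 1321 bp, while the other isoforms ended at it.

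Among the 1058 genes with an isoform of that gene alone that passed the 5′ end, the longest extension had a median of 326 bp (quartiles 116 and 875 bp), and 142 genes had a longer one than acon-3. At the 3′ end 919 genes had such an isoform, with a median of 258 bp, and 92 exceeded acon-3. Further upstream, 73 bp from the start of MSTRG.6508.1 and 1559 bp from the annotated start of acon-3, ended the intergenic transcript MSTRG.6507.1 (266912 to 270345, plus strand, 2836 nt), with 2 exons and an intron of 598 bp. Whether it and the acon-3 isoforms belong to 1 transcript was not tested.

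**Figure D2:**
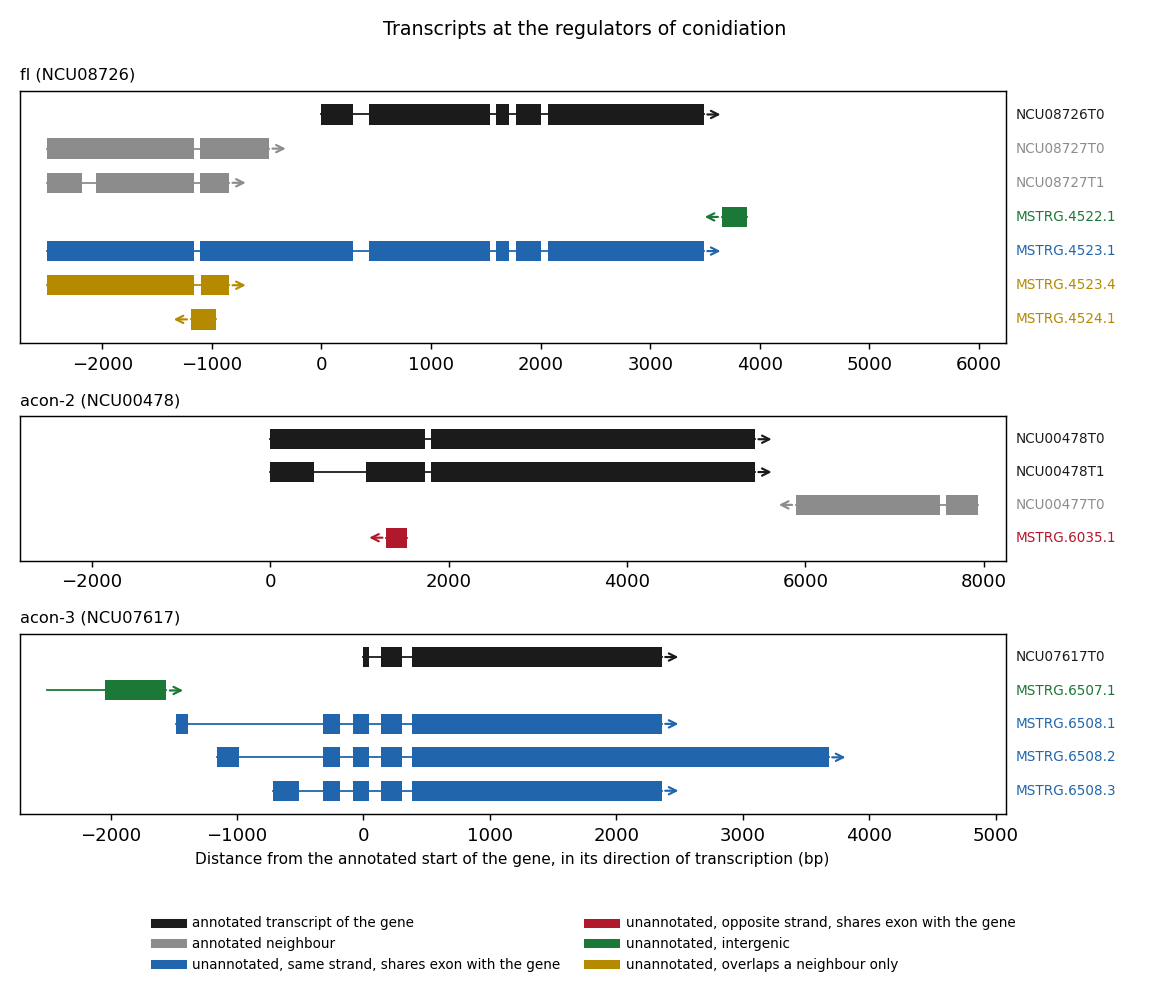
Transcripts at fl, acon-2 and acon-3, with distance from the annotated start of each gene in its direction of transcription on the x axis (bp), exons as boxes, introns as lines and arrows for the strand. Transcripts that run past the edge, 2500 bp from the gene, end there in the drawing. The isoform of fl begins 2501 bp upstream with NCU08727, and the 3 isoforms of acon-3 open with different exons joined to a common second exon.

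The con-6 gene (chromosome III, 5205042 to 5205927, plus strand) has 2 exons of 379 and 396 nt. It lay between 2 genes on the minus strand, NCU08770 upstream and NCU08768 downstream, and its 3′ end overlapped the annotated 3′ end of NCU08768 by 93 bp. The isoforms MSTRG.6392.1 (2358 nt), MSTRG.6392.2 (1862 nt) and MSTRG.6392.4 (2267 nt) kept the con-6 intron of 111 bp and began 1654, 1648 and 1599 bp upstream of the annotated start. The extension of con-6 was exceeded at 122 of the 1058 genes. Another transcript of the group, MSTRG.6392.3 (974 nt), began with them but ended 479 bp short of con-6. The 4 starts lay within 55 bp of each other and 173 to 228 bp past the 3′ end of NCU08770, so each transcript ran through that gene on the opposite strand. MSTRG.6392.4 covered 620 bp of its exon sequence, 100% of it, and the others 549 bp (88.5%).

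The introns of these transcripts were of different kinds. An intron of 71 bp (5203647 to 5203717), annotated on neither strand, was present in MSTRG.6392.1, MSTRG.6392.2 and MSTRG.6392.3, and an intron of 487 bp in MSTRG.6392.2 alone. The intron of 107 bp in MSTRG.6392.3 and MSTRG.6392.4 had the same ends as that of NCU08770 on the other strand. The converse was seen at con-6 itself. MSTRG.6394.1, an isoform of NCU08768 (5205188 to 5207268, minus strand), reached 629 bp of con-6 exon sequence (81.2%) and carried the con-6 intron on the strand opposite to con-6.

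The con-8 gene (chromosome I, 9463799 to 9465488, minus strand, supercontig 12.1) has 3 exons of 733, 149 and 566 nt and introns of 170 and 72 bp. No unannotated transcript overlapped it. The intergenic transcript MSTRG.3234.1 (9465549 to 9467127, 1579 nt, a single exon) lay on the same strand and ended 60 bp upstream of the start of con-8. It filled most of the 1955 bp between con-8 and the divergent gene NCU09233, whose start lay 316 bp from that of MSTRG.3234.1. An intergenic transcript upstream on the same strand lay within 2000 bp of acon-3 and con-8 among the 9 genes and of 10.9% of all genes, and one downstream on the same strand within 2000 bp of 0 of the 9 and of 6.82% of all. On the other side, MSTRG.3231.1 covered the downstream gene NCU09236 in full on the opposite strand (1372 bp) and ended 800 bp from con-8.

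The con-10 gene (chromosome IV, 4364944 to 4365763, minus strand) has exons of 212, 88 and 376 nt and introns of 70 and 74 bp. Its NAT, MSTRG.7787.1 (4365082 to 4365668, plus strand, 443 nt), had 3 exons as well, and both of its introns had the same ends as those of con-10. Its middle exon was therefore the 88 nt exon of con-10, and its outer exons were the 238 and 117 nt next to the introns. It stopped 95 bp inside the 5′ end of con-10 and began 138 bp inside the 3′ end, and all of its sequence lay in con-10 exons (65.5% of the gene).

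Upstream of con-10 on the same strand lies con-13, another conidiation gene. The region between them held the starts of 9 unannotated transcripts on the plus strand (MSTRG.7790.1 to MSTRG.7790.9), which began 481 to 556 bp from the start of con-10 and pointed away from it. They were isoforms of NCU07323 and ran through con-13 on the opposite strand, covering 92.4% to 100% of its exon sequence. None of the introns of these 9 transcripts had the same ends as an annotated intron of the opposite strand. Some overlapped an intron of con-13 with other ends. MSTRG.7790.1 had an intron at 4368153 to 4368223, where con-13 exons lie at 4367622 to 4368136 and 4368194 to 4368460. Among the NATs of all genes, 11.9% of the introns crossed were the same.

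**Figure D3:**
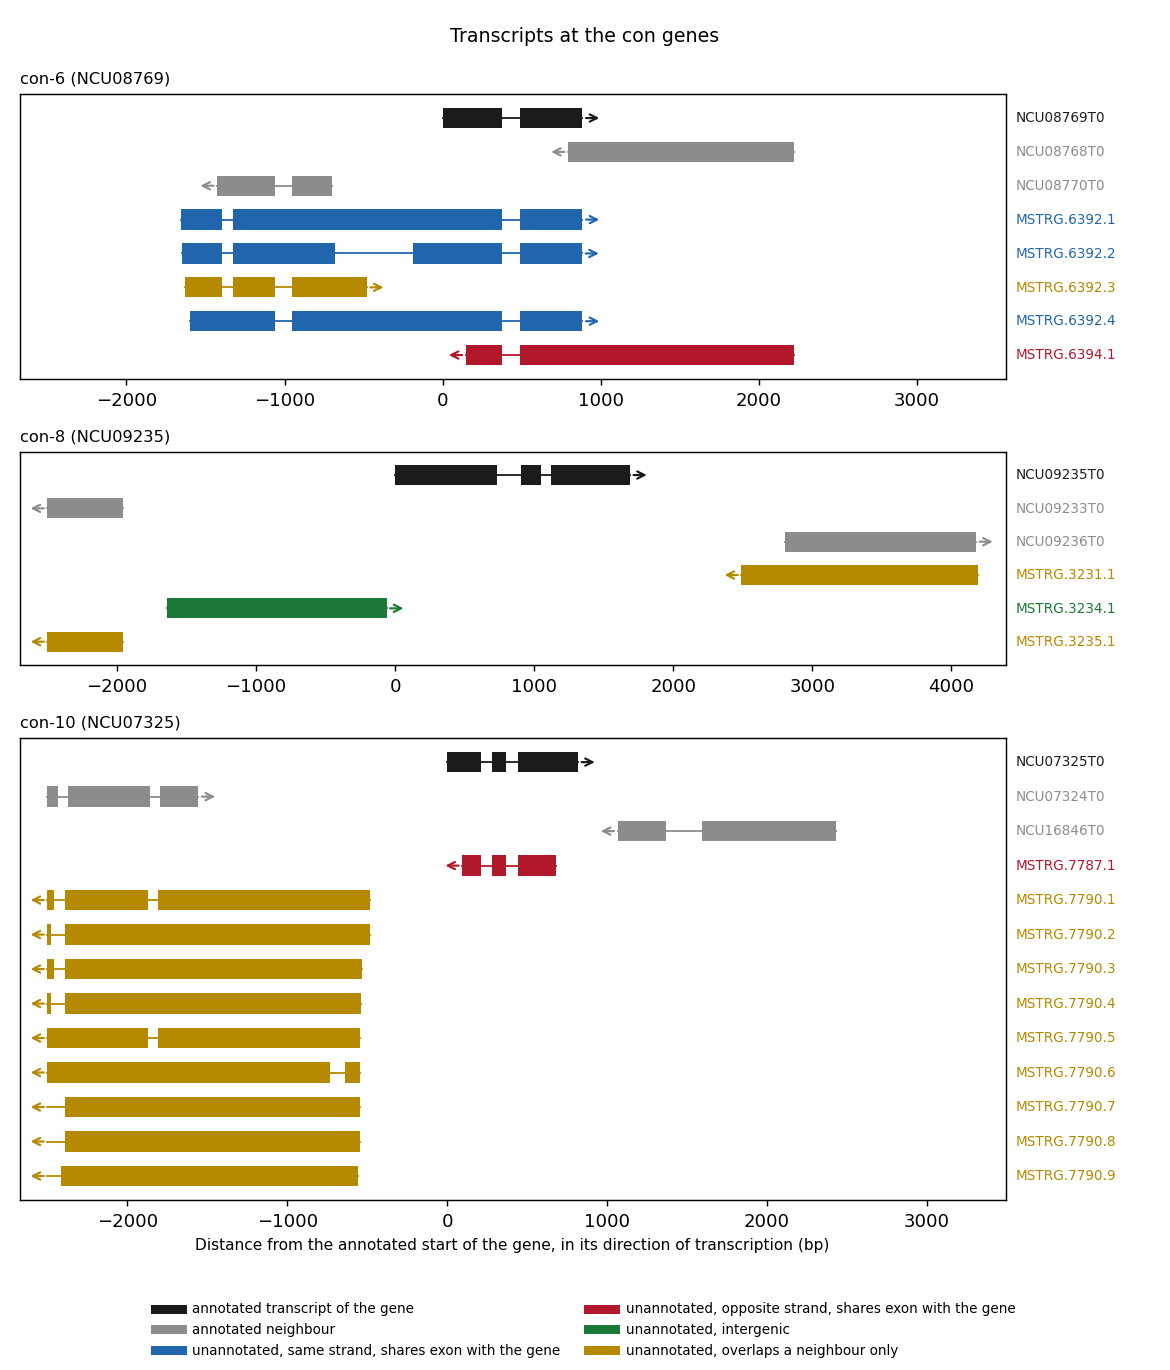
Transcripts at con-6, con-8 and con-10, drawn as distance (bp) from the annotated start of each gene in its direction of transcription, with exons as boxes, introns as lines and arrows for the strand, and with transcripts cut where they pass 2500 bp from the gene. The con-6 isoforms begin 1599 to 1654 bp upstream and run through NCU08770, con-8 has only transcripts beside it, and 9 transcripts begin 481 to 556 bp upstream of con-10 on the opposite strand.

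The eas gene (chromosome II, 3570905 to 3572798, plus strand) has 3 exons of 426, 874 and 383 nt and introns of 117 and 94 bp. No isoform and no NAT was assembled. Of its upstream gap of 5715 bp, the intergenic transcripts MSTRG.4477.1 (3569783 to 3570240, 458 nt, 1 exon) and MSTRG.4479.1 (3567325 to 3569067, 1274 nt, 2 exons) occupied parts, both on the minus strand and thus divergent from eas. They began 664 and 1837 bp upstream of it. Divergent intergenic transcripts lay within 2000 bp of 11.6% of all genes, and of no other gene among the 9.

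The ccg-1 gene (chromosome V, 2302672 to 2303443, minus strand, supercontig 12.5), the smallest of the 9, has exons of 223, 73 and 325 nt and introns of 87 and 64 bp. Its NAT, MSTRG.9025.1 (2302898 to 2303345, plus strand, 297 nt), had exons of 99, 73 and 125 nt and exactly these introns. It lay 98 bp inside the 5′ end and 226 bp inside the 3′ end of ccg-1 and covered 47.8% of its exonic length. Beyond ccg-1, the NAT MSTRG.9012.1 of the upstream gene NCU03754 lay 1601 bp away and the NAT MSTRG.9023.1 of the downstream gene NCU03752 lay 1807 bp away.

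The bli-4 gene (chromosome II, 3723739 to 3725844, plus strand) has exons of 483, 758 and 640 nt and introns of 82 and 143 bp. Its NAT, MSTRG.4497.1 (3723858 to 3725502, minus strand, 1502 nt), shared the intron of 143 bp with bli-4 but ran through that of 82 bp, which lay inside its exon of 1204 nt. It covered 1420 bp (75.5%) of the exonic length of bli-4 and lay 119 bp inside the 5′ end and 342 bp inside the 3′ end. Upstream of bli-4, MSTRG.4495.1 and MSTRG.4495.2 began 245 and 246 bp away and were divergent from it. They were NATs of the upstream gene NCU08697 and overlapped its 3′ part by 513 and 276 bp.

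**Figure D4:**
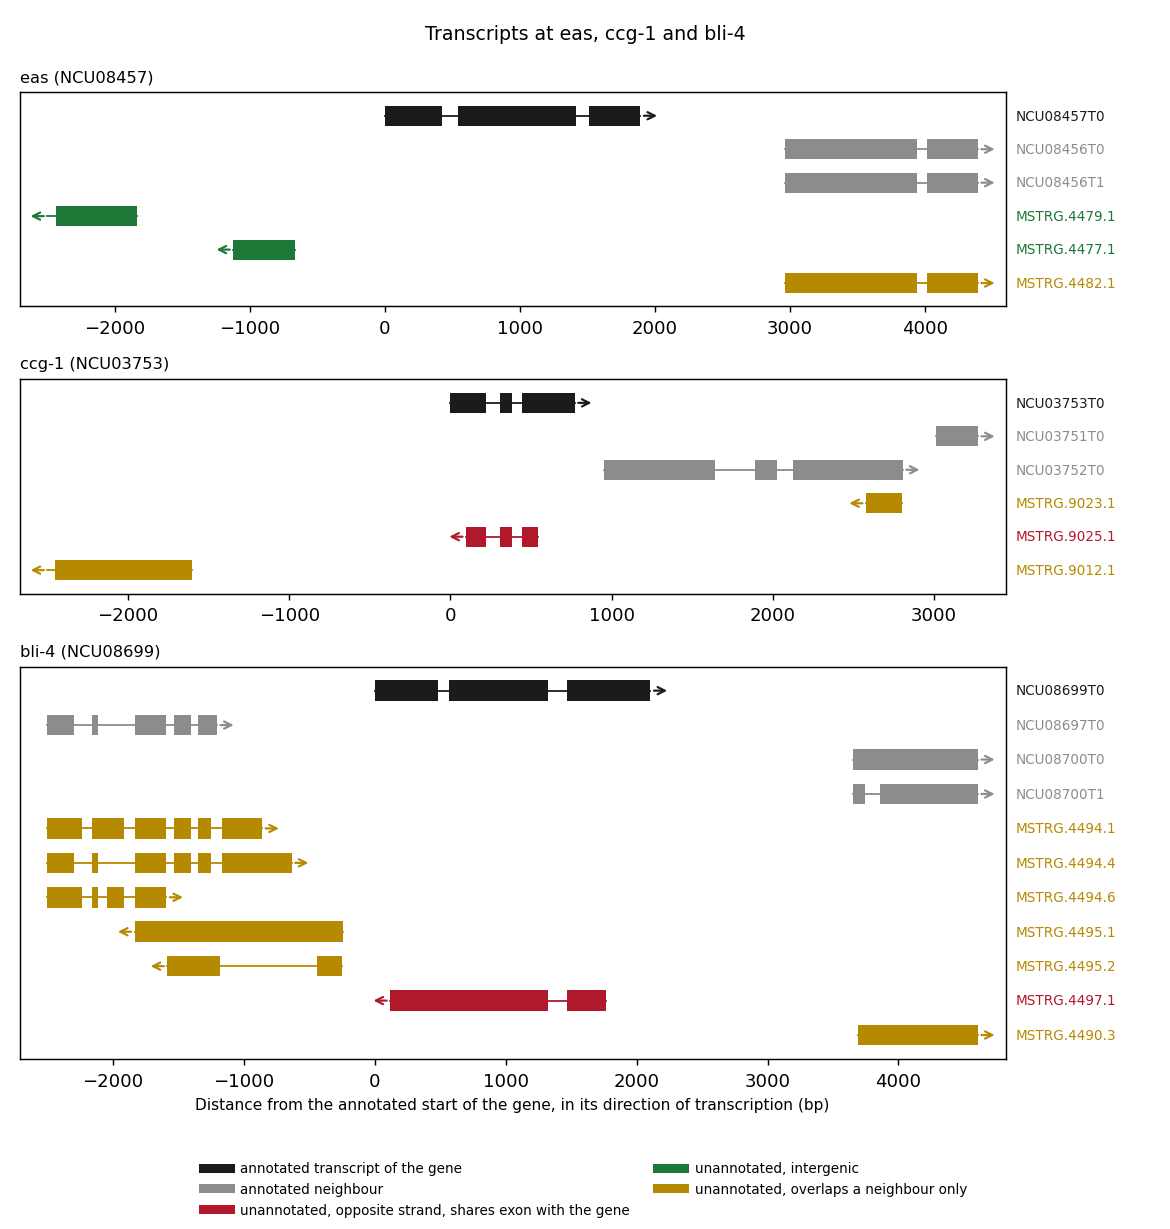
Transcripts at eas, ccg-1 and bli-4, drawn as distance (bp) from the annotated start of each gene in its direction of transcription, with exons as boxes, introns as lines and arrows for the strand, and with transcripts cut where they pass 2500 bp from the gene. At eas both upstream transcripts are divergent, at 664 and 1837 bp, and at ccg-1 and bli-4 an antisense transcript lies inside the gene.

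The genes con-10, ccg-1 and bli-4 thus shared a feature of their NATs. A NAT with an intron of the gene opposite was found at these 3 of the 9 genes and at 119 genes in all, 1.22% of annotated genes. Among the 1692 genes with a NAT and an annotated intron the share was 7.03%. Of the 712 NATs with 2 or more exons, 129 (18.1%) shared at least 1 intron with the gene opposite, and 38 (5.34%) lay inside the gene with exactly its introns, as those of con-10 and ccg-1 did. NATs crossed an annotated intron of the opposite gene in 1540 pairs of transcript and intron. The intron was the same in 183 pairs (11.9%), ran through as exon in 1226 (79.6%) and was neither in 131. Among NATs with 2 or more exons it was the same in 183 of 783 pairs (23.4%). For the NATs of con-10, ccg-1 and bli-4 it was the same for 5 of 6 introns. These NATs were named because each shares an intron with its gene, so part of this count was fixed in advance. Across all genes 116 of the 129 pairs that shared an intron lay inside the gene, with a median of 395 bp (quartiles 166 and 806 bp) from its 5′ end and of 848 bp (360 and 1431 bp) from its 3′ end. The values of 95, 98 and 119 bp and of 138, 226 and 342 bp at the 3 conidiation genes lie below the lower quartile. No allowance was made for gene length, which limits such distances. The whole spans of con-10 (820 bp) and ccg-1 (772 bp) are shorter than the median of 848 bp.

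The genes con-10 and ccg-1 are also among the shortest genes, as given above. Splice sites are not symmetric, and a sequence that marks the ends of an intron on one strand does not read the same on the other. The bases at these intron ends and the strand of the reads were not analysed here, and how the NATs with introns of the gene arose was not tested. Without NATs that share an intron with the gene, an alternative chosen after seeing the data, acon-2 alone of the 9 genes had a NAT, against 20.3% of all genes. Counting opposite-strand isoforms of neighbours as well, con-6 was added and 5 of the 9 genes were covered, against 30.3% of all. The 9 genes have 19 annotated introns in total. A same-strand unannotated transcript kept 7 of them and an opposite-strand one had 6, with the con-6 intron in both sets, and 7 were in neither. Over all 17854 annotated introns, a same-strand unannotated transcript had 33.7% and an opposite-strand one 1.08%. No isoform retained an intron of any of the 9 genes, compared with 22.2% of all annotated genes with such an isoform. Of the 9, only fl, acon-3 and con-6 had an isoform that could do so. Among all genes 3546 had an isoform, and 2156 had one that retained an intron. An intron annotated nowhere on the strand was found in isoforms of acon-3 and con-6, 2 of 9 against 22.1%.

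**Figure D5:**
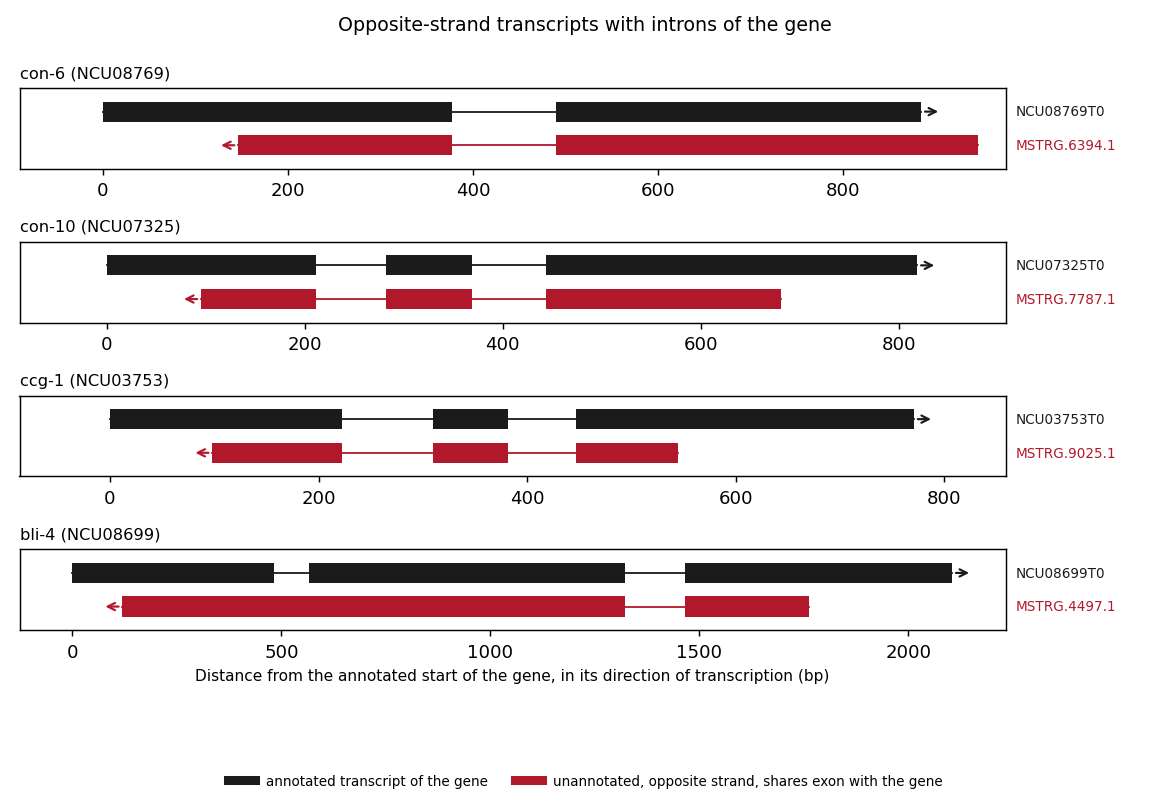
Annotated transcripts of con-6, con-10, ccg-1 and bli-4 (black) above the unannotated transcript of the opposite strand (red), with distance from the annotated start on the x axis (bp), exons as boxes and introns as lines. The introns have the same ends on both strands, except that the 82 bp intron of bli-4 lies inside an exon of the opposite transcript, and the transcript opposite con-6 is cut at the right edge.

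Other genes of conidiation and of light and clock output were described by counts. Of 30 gene symbols linked to conidiation, 21 matched an annotated gene. Of these 21 genes 12 had an isoform (57.1%, against 36.4% of all genes), 3 a NAT (14.3%, against 21.2%) and 13 an intergenic transcript within 2000 bp (61.9%, against 29.1%). The 3 genes with a NAT were ras-1 (a small GTPase gene, largest overlap 287 bp), pkac-1 (a catalytic subunit of protein kinase A, 201 bp) and tah-1 (named for tall aerial hyphae, 2 NATs, 1906 bp), and none of these NATs shared an intron with its gene. The gene con-13 is in this list and was counted without a NAT. The opposite-strand transcripts that run through it, described above, are isoforms of NCU07323. Only 2 of the 21 genes had an isoform past the 5′ end (9.52%, against 14.3% of all genes). Of 25 symbols of clock-controlled, light-induced and carotenoid genes, 15 other genes were matched. A NAT was found at 10 of them (66.7%, against 21.2% of all genes), an isoform at 4 (26.7%, against 36.4%) and an intergenic transcript within 2000 bp at 8 (53.3%, against 29.1%). The 10 were the carotenoid genes al-1 and al-2, the blue-light photoreceptor gene vvd, gpd-1 (ccg-7, glyceraldehyde-3-phosphate dehydrogenase), bli-3, ccg-9, ccg-13, ccg-14, ccg-15 and ccg-16. The NATs of al-1 (1 of 2 introns), ccg-16 (2 of 2) and gpd-1 (2 of 2) had introns of the gene, 20% of the 15 against 1.22% of all genes. These lists were put together with results for some of their genes known, and no list was tested against the rest of the genome.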

How the data were processed

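Per the labels and the methods of the study, ribosomal RNA was depleted and reads were 100 bp paired-end, and the authors mapped them to NC12 with HISAT2 2.1.0 and assembled transcripts with StringTie 1.3.3b. The study states that strand was kept in library preparation, and the kit name alone does not say this. The authors merged all assemblies with the NC12 annotation, as the header of the deposited file records. Positions count from 1 on NC12 supercontigs. The score column of the deposited file holds a constant of 1000 or a dot and is no expression level. The labels give 60000000 reads in total without saying whether this is per library, and the file holds no depth.

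Transcripts were compared by exons and introns in Python 3.11.15, with a minimum overlap of 1 bp. An intron was called shared only where both ends were identical. Gene names came from the RefSeq table of NC12, in which all 9 genes had the same start and end. No sequence was analysed here. On simulated data with genes far apart, the code assigned every gene to the kinds of transcript planted at it. Transcripts that join or overlap neighbouring genes were not simulated. All transcripts under the rule, each gene and its nearest annotated neighbours were named or counted, and genes of the other lists only where they had a NAT. The 9 genes, the lists and the settings were chosen with earlier results of these data known. No test was made, since genes and transcripts are not replicates. Percentages are of all annotated genes unless stated.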

Additional observations from a re-analysis of the deposited data

How the results depend on the processing

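No paired analysis was possible because the annotation pools all libraries and holds no value per replicate, and no library could be left out. Of 31 alternative settings, 25 left the count at the 9 genes within 1.5 times, a measure that ignores the share of all genes. It is coarse for counts this small, and a change from 3 to 2 genes is within it. With 2 or more exons required, 3 of the 9 genes had a NAT in place of 4. The share of all genes then went from 21.2% to 5.82%. With annotated antisense neighbours counted too, 5 of the 9 genes had an antisense transcript, against 40.7% of all genes. An alternative required the overlap to make up 50% of the exonic length of the unannotated transcript itself. Under it con-6 no longer had an isoform, which left 2 of the 9 genes against 30.7% of all. The con-6 isoforms covered 99.6% to 100% of con-6 exon sequence, but this was 32.9% to 41.5% of their own length. Without NATs that share an intron with the gene, 1 of the 9 genes had a NAT in place of 4, and 20.3% of all genes in place of 21.2%. An intergenic transcript lay near 2 genes in place of 4 both within 500 bp (fl and con-8) and with 2 or more exons required (acon-3 and eas), while the share of all genes went from 29.1% to 14.8% and 6.43%. The 40 unannotated transcripts became 19 within 500 bp, 23 with 1 per assembly gene and 23 without isoforms of neighbouring genes. Assembly depends on depth, which is not known per library, so a transcript that was not assembled may still be present in the cells.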

Other observations

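Of the 9 genes, eas, bli-4 and fl lie near each other on chromosome II, within 238361 bp, with 150940 bp between eas and bli-4 and 79932 bp between bli-4 and fl. The transcripts at these loci differed in kind: divergent intergenic transcripts at eas, a NAT with an intron of the gene at bli-4 and an isoform joined to the upstream gene at fl. Downstream of eas, MSTRG.4482.1 joined NCU08456 and NCU08455 on the same strand and began 1070 bp from eas. Upstream of bli-4, MSTRG.4494.1 joined NCU08696 and NCU08697 in 18 exons and 9055 nt and ended 860 bp from bli-4.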
